A study of Mus musculus with 2 samples.

Results

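The genes described here are 10 genes that act in olfactory receptor choice, in the feedback that ends it, and in the heterochromatin that keeps the other receptor genes silent. They are Kdm1a, Atf5, Lbr, Rtp1, Rtp2, Eif2ak3, Ehmt1, Ehmt2, Cbx5 and Trim66, taken as a list by name out of 21755 protein-coding genes annotated on the 20 chromosomes analysed, and all 10 were found. Each was placed by its transcription start site (TSS) among 7610 chromosome boundaries measured in mature olfactory sensory neurons. Ldb1, which encodes a cofactor that links transcription factors at enhancers, was knocked out conditionally in these cells by Cre recombinase driven by OMP, a gene of mature olfactory neurons. Neurons of adult mice of mixed sex and unspecified strain were isolated from the olfactory epithelium by flow cytometry, as 2 biological replicates of 1000000 cells each. The assay was in situ Hi-C, which joins and sequences DNA fragments that lie close together in fixed nuclei, here after 1% formaldehyde and digestion with DpnII. With OMP-Cre the deletion is limited to neurons that have begun to express Omp, and a boundary list cannot show how far Ldb1 was lost.

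Each mature olfactory neuron transcribes 1 receptor gene from a very large family, and the silent receptor genes are packed into heterochromatin. A receptor that reaches the endoplasmic reticulum activates the kinase Perk (Eif2ak3), which permits translation of the transcription factor Atf5, and this signal ends the window in which the demethylase Lsd1 (Kdm1a) can activate a further receptor. Ehmt1, Ehmt2 and Cbx5 encode writers and a reader of the repressive lysine 9 mark, Trim66 a chromatin reader, and Lbr a nuclear envelope protein whose low level in these neurons lets silent receptor genes gather inside the nucleus, while Rtp1 and Rtp2 carry the chosen receptor to the cell surface.

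There was 1 group, and the 1 boundary list analysed was called by the authors on contacts pooled from both replicates. Values therefore carry no replicate error, the depth behind each boundary is unknown, and nothing here compares knockout with normal neurons. No test is given, and counts over the 10 genes stand beside the same share over all protein-coding genes. A boundary list holds no expression values, so the sorted cell type could not be checked against its markers. The list is made of 5 kb bins, each with a strength, the authors' own score. It ran from 0.2001 to 4.13 with a median of 0.538, and bins at 0.5 or more were classed strong. A domain is the interval between the boundary on either side of a TSS, from bin centre to bin centre. Distances run from the TSS to the nearer edge of a bin. All coordinates are GRCm38.

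The 10 genes occupied 10 different domains on 8 chromosomes. Their median length was close to that of all genes, and the boundaries around them were mostly strong. The domains ran from 130 kb around Kdm1a to 535 kb around Rtp2, with a median of 277.5 kb, against a median of 275 kb (interquartile range 195 to 400 kb) over the 21552 protein-coding TSSs that had a boundary on both sides. Of the 19 distinct boundaries that flanked them, 16 were strong (84.2%) and 3 weak, against 52.9% strong in the whole list. For a like comparison, 61.7% of the flanks of all protein-coding TSSs were strong when each TSS was counted with both of its flanks. Counted that way the 10 genes had 17 strong flanks of 20 (85%). Both flanks were strong for 7 of the 10 genes, against 37.1% of all protein-coding TSSs. The nearest boundary was strong for 10 of 10, against 63.3% of all protein-coding TSSs. These counts use the same boundaries and are not separate results. They also depend on the limit of 0.5. Several of the 16 strong boundaries lay just above it, from 0.520 to 0.575, and the rest ran from 0.623 to 2.76. The 19 boundaries had a median strength of 0.822, from 0.249 to 2.76. The binomial interval of this median, 0.525 to 1.24, held the list median of 0.538. Counting both flanks of each gene gave a median of 0.723, against 0.640 over all protein-coding TSSs.

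**Figure D1:**
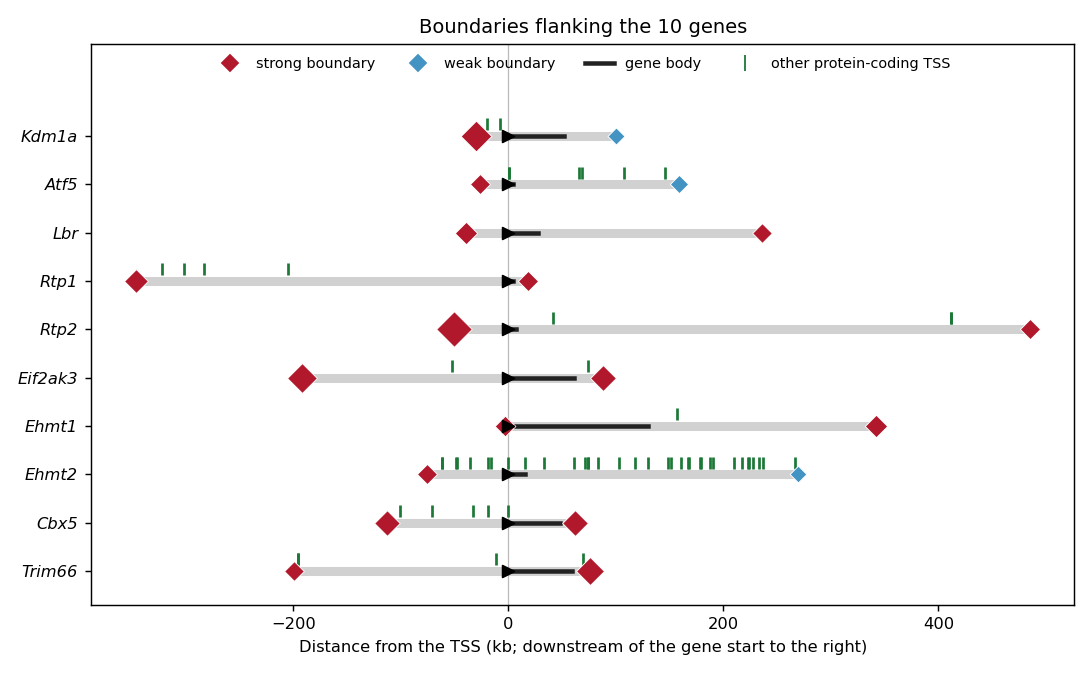
Each row is 1 of the 10 genes, drawn in its direction of transcription with its TSS at 0, and the horizontal axis is the distance from the TSS in kb. Diamonds are the flanking boundaries, red for strong and blue for weak and larger with higher strength, black bars are gene bodies and green ticks are other protein-coding TSSs in the same domain. The domains of Kdm1a, Atf5 and Ehmt2 each end at 1 weak boundary, and the Ehmt2 domain holds 35 other TSSs.

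Eif2ak3 and Atf5 form the signalling arm of the feedback, and they lay in unlike neighbourhoods. Eif2ak3, which encodes the stress kinase Perk, occupies chromosome 6, 70844515 to 70905245, on the forward strand. Its upstream boundary (70650001 to 70655000) had a strength of 1.80, above 95.6% of the list, and lay 189.5 kb from the TSS. The downstream boundary (70930001 to 70935000) had a strength of 1.24, above 85.9% of the list, and lay 85.5 kb from the TSS. Eif2ak3 was thus held between strong boundaries, both intergenic, in a domain of 280 kb. Its protein-coding neighbours there were Rpia, which encodes ribose 5-phosphate isomerase (TSS 52.3 kb away), and Tex37 (74.4 kb). The same domain also held 11 gene segments of the immunoglobulin kappa locus, namely Igkc, 5 Igkj segments and 5 Igkv segments. Beyond the downstream boundary the next protein-coding TSS was that of Foxi3, which encodes a forkhead transcription factor, 112.0 kb from that of Eif2ak3.

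Atf5, the transcription factor whose translation follows Perk activity, occupies chromosome 7, 44812256 to 44816658, on the reverse strand. The upstream boundary (44840001 to 44845000; strength 0.563) lay 23.3 kb from its TSS and overlapped exons of Il4i1 and Tbc1d17. The downstream boundary (44655001 to 44660000) was weak (0.388), lay 156.7 kb away and overlapped an exon of Myh14. This domain of 185 kb was longer than that of 20.4% of protein-coding TSSs, and it ended in boundaries near or below the median strength. It held 6 other protein-coding genes. The TSSs of Il4i1, which encodes an amino acid oxidase, and Nup62, which encodes a nuclear pore protein, lay 0.271 and 0.570 kb from that of Atf5 on the opposite strand and inside the Atf5 gene body. Zfp473, Vrk3, Izumo2 and Myh14 followed at 65.6, 68.2, 107.9 and 145.8 kb. With strong boundaries alone the domain grew to 345 kb and to 12 other genes.

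Kdm1a, which encodes the demethylase Lsd1, had the shortest domain and the most unequal flanks of the 10. It occupies chromosome 4, 136550540 to 136602723, on the reverse strand, and its domain of 130 kb was longer than that of only 4.40% of protein-coding TSSs. The upstream boundary (136630001 to 136635000) had a strength of 1.95, which ranked 236 in the list, lay 27.3 kb from the TSS and overlapped an exon of Lactbl1. The downstream boundary (136500001 to 136505000) was weak at 0.273, lay 97.7 kb from the TSS and fell in an intron of Luzp1. The upstream boundary was thus 7.15 times as strong as the downstream one, against a median ratio of stronger to weaker flank of 1.64 over the 10 genes and 1.98 over all protein-coding TSSs. The gene body filled 40.1% of the domain, and the other protein-coding TSSs, of Tex46 (7.71 kb) and Lactbl1 (19.9 kb), both lay upstream on the opposite strand. Across the weak boundary the next protein-coding TSS was that of Luzp1, 133.0 kb from that of Kdm1a, and across the strong one it was that of Ephb2, an ephrin receptor gene, at 233.3 kb. Between strong boundaries alone the domain measured 265 kb and held 5 other genes.

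Ehmt1 and Ehmt2 encode the partner methyltransferases GLP and G9a, which place the dimethyl mark on lysine 9 of histone H3, and their domains had the same length of 345 kb and very different contents. Ehmt1 occupies chromosome 2, 24789928 to 24919614, on the reverse strand. It was the only one of the 10 with a boundary within 10 kb of the TSS (1 of 10, against 14.3% of all protein-coding TSSs). With strong boundaries alone the count was again 1 of 10, against 9.3%. That boundary (24920001 to 24925000; strength 0.623) was intergenic and began 0.387 kb upstream of the TSS. The other (24575001 to 24580000; 0.823), also intergenic and nearest to the TSS of the transcription factor gene Pax8, lay 339.6 kb downstream. The domain held 1 further protein-coding TSS, that of the calcium channel gene Cacna1b, 156.5 kb downstream on the same strand. Upstream, the TSS of Arrdc1, an arrestin domain gene, was 15.6 kb from that of Ehmt1, with the boundary between them.

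Ehmt2 occupies chromosome 17, 34898469 to 34914052, on the forward strand, in the class III part of the major histocompatibility complex. It had the most crowded domain of the 10, with 35 other protein-coding TSSs (10.4 genes per 100 kb, counting Ehmt2, against 0.580 for Ehmt1), and 3.05% of protein-coding TSSs had more neighbours in their domain. The upstream boundary (34820001 to 34825000; 0.562) lay 73.5 kb from the TSS and overlapped an exon of Stk19. The downstream boundary (35165001 to 35170000) was the weakest of the 19 at 0.249, lay 266.5 kb from the TSS and began 0.104 kb from the TSS of Prrc2a. The nearest TSS to that of Ehmt2 belonged to the complement gene C2, 0.204 kb upstream on the opposite strand, followed upstream by Gm20547 (16.4 kb), Zbtb12 (19.0 kb), the complement factor gene Cfb (35.95 kb) and Nelfe (48.1 kb). On the downstream side the nearest were Slc44a4 (15.997 kb), the neuraminidase gene Neu1 (32.8 kb), the heat shock gene Hspa1b (60.8 kb), Gm20481 (71.4 kb) and the heat shock gene Hspa1a (73.7 kb). Aif1 was the first gene across the weak boundary, and with strong boundaries alone the domain was 425 kb long and held 44 other genes.

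The Ehmt1 promoter is shown because it lay closest to a boundary, and the Rtp2 promoter because it differed most from it in CpG content among the 9 promoters. Both are RefSeq windows (GRCm38.p6) of 250 bases before to 50 after the start, on the strand of the gene, with CpG dinucleotides in capitals.
Ehmt1 promoter, chr2:24919560-24919859, reverse strand: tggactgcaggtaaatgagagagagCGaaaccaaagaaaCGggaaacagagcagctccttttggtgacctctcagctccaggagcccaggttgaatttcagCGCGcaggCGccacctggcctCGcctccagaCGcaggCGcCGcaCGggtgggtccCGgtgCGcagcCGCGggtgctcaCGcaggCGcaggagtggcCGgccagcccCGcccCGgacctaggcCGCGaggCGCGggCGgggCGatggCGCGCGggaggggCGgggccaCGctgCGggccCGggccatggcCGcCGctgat
Rtp2 promoter, chr16:23930745-23931044, reverse strand: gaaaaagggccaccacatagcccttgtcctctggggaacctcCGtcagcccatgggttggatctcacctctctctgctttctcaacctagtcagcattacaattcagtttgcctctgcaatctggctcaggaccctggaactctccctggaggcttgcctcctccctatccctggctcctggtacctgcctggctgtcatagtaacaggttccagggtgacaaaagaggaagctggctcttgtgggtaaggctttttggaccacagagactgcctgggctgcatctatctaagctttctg
The Ehmt1 window held 34 CpG dinucleotides and lay 142 bases from the boundary bin, whereas the Rtp2 window held 1 and lay 49.0 kb from the nearest bin. The RefSeq start of Rtp2 is 1600 bases from the GENCODE TSS used for its distances.

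Cbx5, Lbr and Trim66 act on the heterochromatin side, as a reader of the lysine 9 mark (HP1 alpha, from Cbx5), an inner nuclear membrane protein that tethers heterochromatin (lamin B receptor, from Lbr), and a chromatin reader of the TRIM family (Trim66). Cbx5 occupies chromosome 15, 103191544 to 103239816, on the reverse strand, in a domain of 175 kb. Its boundaries were of nearly equal strength. The upstream one (103350001 to 103355000) had a strength of 1.196, lay 110.2 kb from the TSS and overlapped an exon of the integrin gene Itga5. The downstream one (103175001 to 103180000) had a strength of 1.23, was intergenic and lay 59.8 kb from the TSS. They lay above 84.7 and 85.7% of the list, and the flank ratio of 1.03 was the lowest of the 10. The RNA-binding protein gene Hnrnpa1 started 0.616 kb upstream of Cbx5 on the opposite strand, and Nfe2, Copz1, Gpr84 and Zfp385a followed at 18.6, 32.9, 70.8 and 100.3 kb. All 5 lay upstream of the Cbx5 TSS.

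Lbr occupies chromosome 1, 181815335 to 181843046, on the reverse strand, and was the only protein-coding gene with a TSS in its domain of 275 kb. The upstream boundary (181880001 to 181885000; 0.822) was intergenic and lay 37.0 kb from the TSS, and the downstream one (181605001 to 181610000; 0.520) overlapped an exon of the dynein gene Dnah14 and lay 233.0 kb away. Both were strong, the second only just. No other protein-coding TSS lay in the domains of 8.90% of protein-coding TSSs. The 4 other annotated genes of the Lbr domain were Gm37664, Gm5533, Gm26004 and Gm23690, none of them protein-coding, and the nearest protein-coding TSS of all was that of Enah, an actin regulator gene, 176.9 kb upstream across the boundary.

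Trim66 occupies chromosome 7, 109449006 to 109508134, on the reverse strand, also in a domain of 275 kb. Its upstream boundary (109705001 to 109710000) had a strength of 0.525, overlapped an exon of Akip1 and lay 196.9 kb from the TSS. The downstream boundary (109430001 to 109435000) had a strength of 1.53, above 92.0% of the list, lay 73.1 kb from the TSS and fell in an intron of the kinase gene Stk33. Trim66 thus had its stronger boundary behind the gene end. The ribosomal protein gene Rpl27a started 11.01 kb upstream on the opposite strand, Stk33 69.1 kb downstream, and St5 and Akip1 195.5 and 195.6 kb upstream, close to the upstream boundary. Trim66 was also the member closest to an olfactory receptor gene, Olfr519 at 613.7 kb with 3 boundaries between them. The other 9 were from 1633.8 kb (Ehmt2, to Olfr63) to 38251.8 kb (Atf5, to Olfr1350) from the nearest one, and 0 of the 10 domains held a receptor gene. Such domains were rare, since 1.74% of the 20418 other protein-coding TSSs, receptor genes left out, shared a domain with one.

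Rtp1 and Rtp2 encode the transporters that carry olfactory receptors to the plasma membrane, and although both lie on chromosome 16 they fell in different, adjacent domains. Rtp1 (23429133 to 23433960, forward strand) and Rtp2 (23925548 to 23932394, reverse strand) start 503.3 kb apart and face each other, and 1 boundary was called between them (23445001 to 23450000; strength 0.575, above 53.0% of the list). It lay 15.9 kb from the TSS of Rtp1 and 482.4 kb from that of Rtp2, downstream of both, and overlapped an exon of Masp1, which encodes a complement protease. The related gene Rtp4 lay on the Rtp2 side. It was 91.2 kb from Rtp1 with the boundary between them, and 412.1 kb from Rtp2 with no boundary between them.

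The outer boundaries of the pair were stronger than the shared one. That of Rtp1, 344.1 kb upstream (23080001 to 23085000), had a strength of 0.981 and overlapped an exon of the kininogen gene Kng1. That of Rtp2, 47.6 kb upstream (23980001 to 23985000), had a strength of 2.76, which ranked 22 of 7610, and fell in an intron of Bcl6, a transcriptional repressor gene. It was the strongest of the 19. Rtp1 shared its domain of 365 kb with St6gal1, a sialyltransferase gene (204.4 kb), Adipoq, which encodes adiponectin (282.6 kb), Rfc4 (301.4 kb) and the translation factor gene Eif4a2 (321.7 kb), all upstream. Rtp2 shared its domain of 535 kb, longer than that of 85.5% of protein-coding TSSs, with the somatostatin gene Sst (41.4 kb), Masp1 (411.6 kb) and Rtp4. Across the strong boundary the first gene was Gm37419, and the following domain was 845 kb long.

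**Figure D2:**
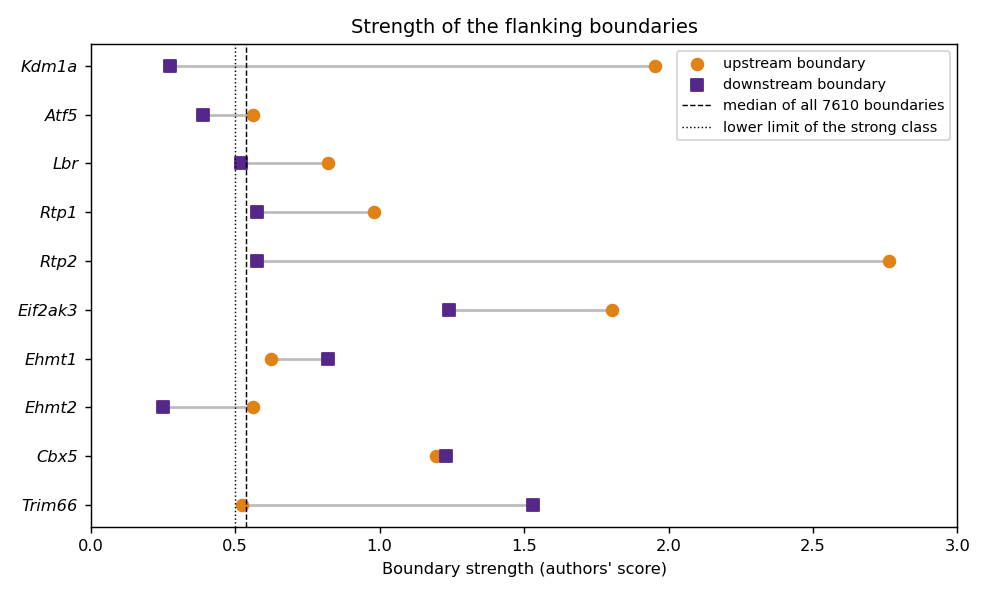
The horizontal axis is the authors' boundary strength and each row is 1 gene, with its upstream boundary as an orange circle and its downstream boundary as a purple square. The upstream boundary is the stronger for 7 of 10 genes, Rtp2 has the strongest flank (2.76) and Kdm1a the most unequal pair (1.95 and 0.273).

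Set side by side, the 10 genes stood at the following distances from their nearest boundary, from near to far. Ehmt1 was at 0.387 kb, Rtp1 at 15.9 kb, Atf5 at 23.3 kb, Kdm1a at 27.3 kb and Lbr at 37.0 kb. Rtp2 was at 47.6 kb, Cbx5 at 59.8 kb, Trim66 at 73.1 kb, Ehmt2 at 73.5 kb and Eif2ak3 at 85.5 kb. With bins of 5 kb, Trim66 and Ehmt2 cannot be put in order, nor can Atf5 and Kdm1a. The order from the fifth gene on depended on the start used. From the nearest annotated transcript start, Eif2ak3 was 33.2 kb, Cbx5 35.3 kb and Trim66 40.1 kb from a boundary, which gave Eif2ak3 rank 5 in place of rank 10 and made Ehmt2 the farthest, while the other 7 distances did not move. The median was 42.3 kb, against 56.6 kb (interquartile range 23.3 to 105.1 kb) over all protein-coding TSSs. The binomial interval of the median over the 10 genes, 15.9 to 73.5 kb, held the value over all TSSs. Within 25 kb of a boundary were 3 of the 10 (26.5% of all protein-coding TSSs) and within 50 kb 6 of the 10 (45.3%). Neither count was tested against its background share.

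To the nearest strong boundary the median was again 42.3 kb for the 10 genes, since each had a strong boundary as its nearest, and it was 100.9 kb over all protein-coding TSSs. The nearest boundary was on the upstream side of 6 of the 10 (Kdm1a, Atf5, Lbr, Rtp2, Ehmt1 and Ehmt2), near the 51.9% of all protein-coding TSSs. The upstream flank was the stronger for 7 of the 10, against 51.5%. No gene body of the 10 was crossed by a boundary (0 of 10, against 13.0% of all protein-coding genes, and 11.1% of the 16459 whose length lay between those of Atf5 and Ehmt1, 4.40 and 129.7 kb). That range does not match the genes by length. The median length was 38.0 kb for the 10 genes and 17.4 kb over all protein-coding genes.

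**Figure D3:**
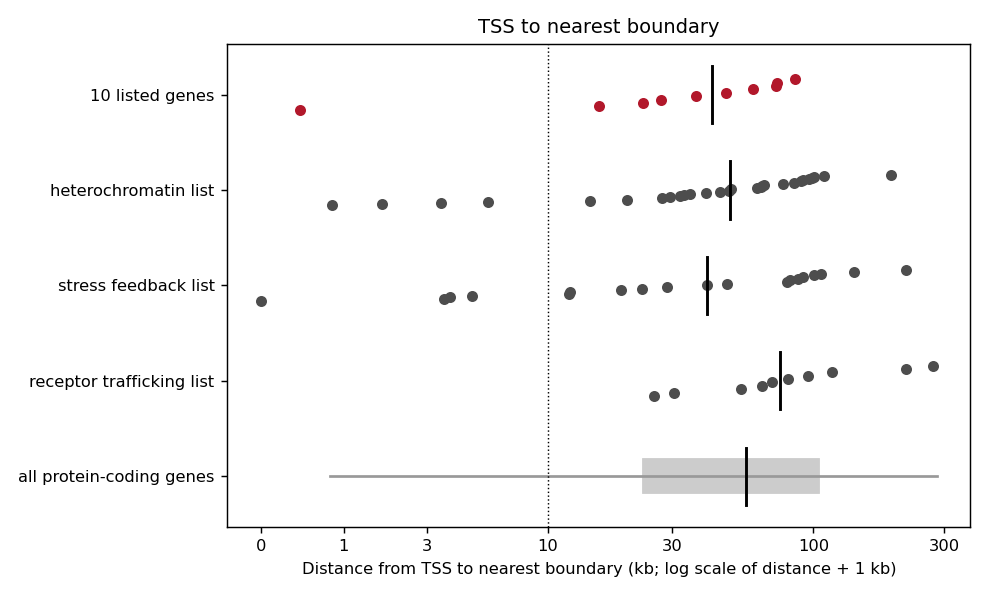
The horizontal axis is the distance from TSS to nearest boundary in kb, on a log scale of distance plus 1 kb. Points are genes in order of distance, thick vertical lines are medians, the grey box and line give the quartiles and the 5th to 95th percentiles of all 21755 protein-coding genes, and the dotted line marks 10 kb. Of the 10 listed genes Ehmt1 alone lies left of that line, and none lies beyond 85.5 kb.

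Gene content varied more than length. The domains held a median of 3.5 other protein-coding TSSs (range 0 to 35), against 5 (interquartile range 2 to 10) over all protein-coding TSSs. Counted per length, the 10 domains had a median of 1.59 genes per 100 kb, from 0.364 for Lbr to 10.4 for Ehmt2, against 2.13 over all. Another protein-coding TSS lay within 1 kb of 3 of the 10, namely Atf5, Ehmt2 and Cbx5, against 12.7% of all protein-coding TSSs. Each of these close neighbours was on the opposite strand. In the 1000 kb around each TSS there were 2 to 6 boundaries, with a median of 4 for the 10 genes and for all protein-coding TSSs.

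**Figure D4:**
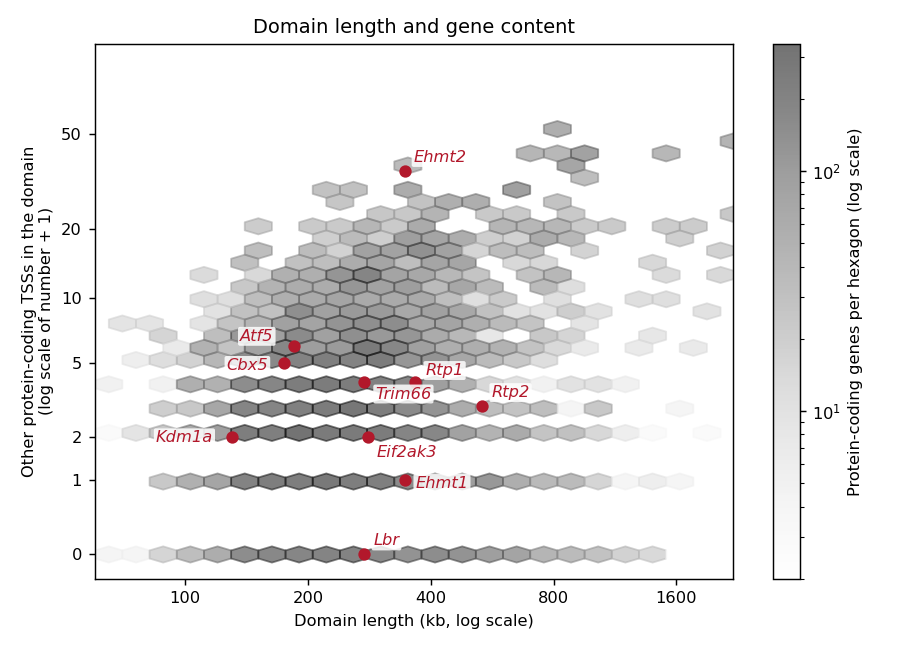
The horizontal axis is domain length in kb and the vertical axis the number of other protein-coding TSSs in the domain, both on log scales. Grey hexagons count all protein-coding genes, without the few in domains too long for the axis, and red points are the 10 listed genes, which span 130 to 535 kb in length and 0 to 35 in gene number.

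CTCF, the protein that halts loop extrusion, binds a well-known consensus sequence, searched here on both strands as a 12-base pattern. A match is a sequence and not a binding measurement. At 7 of the 19 flanking boundaries (36.8%, against 24.4% of the whole list) at least 1 match was found within 10 kb of the bin, 9 matches in all. They belonged to Lbr and Cbx5 on both sides, to Kdm1a and Rtp2 upstream, and to Ehmt2 downstream. With a window of 25 kb the count stayed at 7 of 19, which was below the 38.5% of the list. The 19 were picked as flanks of protein-coding TSSs, and 84.2% of them were strong, against 52.9% of the list. These shares therefore compare unlike sets. The 9 sequences are shown because they separate these boundaries from the 12 without a match. Each has 40 bases on the strand of the match, with the matching bases in capitals.
Lbr downstream boundary, chr1:181616330-181616369, reverse strand: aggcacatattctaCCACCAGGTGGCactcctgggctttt
Lbr downstream boundary, chr1:181617518-181617557, forward strand: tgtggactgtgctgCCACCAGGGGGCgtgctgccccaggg
Lbr upstream boundary, chr1:181888942-181888981, forward strand: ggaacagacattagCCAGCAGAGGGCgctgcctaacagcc
Cbx5 downstream boundary, chr15:103178350-103178389, reverse strand: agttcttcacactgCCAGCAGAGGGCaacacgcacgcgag
Cbx5 upstream boundary, chr15:103342592-103342631, reverse strand: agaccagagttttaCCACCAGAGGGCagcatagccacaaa
Cbx5 upstream boundary, chr15:103343745-103343784, reverse strand: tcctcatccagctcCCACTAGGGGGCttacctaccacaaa
Rtp2 upstream boundary, chr16:23984349-23984388, forward strand: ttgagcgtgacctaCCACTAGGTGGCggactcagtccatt
Ehmt2 downstream boundary, chr17:35178673-35178712, forward strand: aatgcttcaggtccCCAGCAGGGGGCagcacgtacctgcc
Kdm1a upstream boundary, chr4:136621490-136621529, reverse strand: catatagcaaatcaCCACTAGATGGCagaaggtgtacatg
Those of the Cbx5 downstream boundary and of the Rtp2 boundary in Bcl6 fell inside the bin (2 of 19, against 6.29% of the list). Of the 7 outside a bin, 6 pointed away from the boundary, against 65.6% of the 1780 such matches in the whole list. The exception was the first Lbr sequence, in an intron of Dnah14. Several strong boundaries had no match, among them both flanks of Eif2ak3 (1.80 and 1.24) and the Stk33 flank of Trim66 (1.53), and the weakest boundary of the 19, downstream of Ehmt2, had one. The boundary between Rtp1 and Rtp2 and that at the Ehmt1 promoter had none.

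Promoters of other genes lay near several of the boundaries. The 19 were picked as flanks of protein-coding TSSs and the whole list was not, so their shares come from unlike sets. The share over the flanks of all protein-coding TSSs was not computed. A protein-coding TSS was within 10 kb of 9 of the 19 (47.4%), whereas 31.1% of the list had one. They included the flanks at Lactbl1 (7.38 kb), Akt1s1 (3.99 kb), Gm37419 (3.48 kb), Prrc2a (0.104 kb), Smug1 (7.91 kb), Zfp385a (9.91 kb), Stk33 (4.08 kb) and Akip1 (1.31 kb), besides Ehmt1 itself. So 1 of the 10 genes had its own promoter at its boundary, and the other 8 such boundaries were at promoters of neighbours.

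The promoters of 9 of the 10 genes differed in CpG content, a feature the boundary list does not use. RefSeq windows were matched for these 9, all but Rtp1, with 1 window for each gene. The ratio of observed to expected CpG had a median of 0.890, against 0.588 over 17274 promoters of protein-coding genes. It was 1.094 for Cbx5, 1.090 for Lbr, 1.08 for Kdm1a, 0.934 for Atf5, 0.890 for Ehmt1, 0.770 for Eif2ak3 and 0.759 for Ehmt2. Trim66 (0.242) and Rtp2 (0.0463) stood apart below these 7. These values depend on the start used. The RefSeq start was 1600 bases from the GENCODE TSS for Rtp2 and 645 bases for Lbr. Trim66 has 3 annotated transcript starts, and the 9 genes have from 2 (Rtp2) to 17 (Ehmt1). The windows at other starts were not scored. The homeodomain core TAATTA, which Lhx2 can bind, matched 0 of the 9 windows on either strand (4.59% of all promoters), and the Ebf palindrome also matched 0 (0.926%). The C/EBP-ATF element TGATGNAA matched 1, that of Kdm1a (3.49%).

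Among further genes of the same processes, 4 heterochromatin genes, 4 stress feedback genes and 0 receptor trafficking genes stood at a boundary, and the background share of 14.3% lay inside the interval of each list. The 4 heterochromatin genes were among 28 (14.3%, with an exact 95% interval of 4.03 to 32.7%). The strongest boundaries were at Kdm1b, which encodes the relative of Lsd1 (0.906, at 3.50 kb), and Rcor1, which encodes the CoREST partner of Lsd1 (0.538, at 5.65 kb). The demethylase gene Kdm3a (192.0 kb) and the DNA methyltransferase gene Dnmt3a (109.0 kb) lay farthest. Both flanks were strong for 11 of these 28 genes (39.3%), against 37.1% of all protein-coding TSSs.

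Of 19 genes of the stress and feedback pathway, 4 were at a boundary (21.1%, interval 6.05 to 45.6%). The asparagine synthetase gene Asns had its TSS inside a strong boundary bin (1.29), and Ppp1r15b, which encodes a regulator of eIF2 alpha dephosphorylation, was 3.86 kb from one (1.26). Atf4, the close relative of Atf5, was 4.82 kb from a strong boundary (1.05). Eif2ak2 (217.4 kb) and Chac1 (141.2 kb) lay farthest, and Adcy3, the adenylyl cyclase gene of olfactory signalling, was at 48.1 kb. Of 10 receptor trafficking genes, 0 were at a boundary (exact 95% upper bound 30.8%), and their median distance was 75.4 kb. Both flanks were strong for 9 of the 19 stress feedback genes (47.4%) and 5 of the 10 receptor trafficking genes (50%). Rtp3 (25.6 kb) was the nearest, and Ric8b (272.4 kb) and Reep3 (218.1 kb) the farthest. The intervals cover counting error only and treat genes as independent.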

How the data were processed

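In situ Hi-C contacts of 2 biological replicates were combined by the authors into 1 matrix on GRCm38, from which boundaries were called, per the series' design text in the labels. For the caller, its version and its settings, the sources used here give nothing. The deposited file gives each 5 kb bin a class and a strength, which is the authors' score; its scale is unstated, and it was used only to describe boundaries within this list. The depth is unknown.

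TSSs were the 5′ ends of protein-coding genes in GENCODE M21, whose build matches the list. A gene was at a boundary when its TSS was in the bin or within 10 kb. A domain ran between the last bin centred at or before the TSS and the first after it. Intervals of shares are exact 95% binomial intervals. CTCF matches came from the GRCm38 sequence and promoters from RefSeq. Ddit3, which has 2 gene IDs, was counted once in its list. The computation was tested on simulated boundaries. Software was matplotlib 3.10.9, scipy 1.17.1, pandas 2.3.3 and numpy 2.4.6 under Python 3.11.15.

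The members and gene lists were chosen with earlier results of these data known. Named were all 10 members, the other genes of each domain (at most 10, otherwise the 5 nearest on each side), the gene nearest each boundary, and of each list the 2 at the strongest boundaries and the 2 farthest from one. Rtp3, Atf4 and Adcy3, the genes named across a boundary and the kappa segments were named after their values were seen. Alternatives changed the window, the boundary class, the TSS, the reference point, the members and the repeats.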

Additional observations from a re-analysis of the deposited data

How the results depend on the processing

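No paired analysis was possible because the study has 1 group. Leaving out a replicate was not possible either, as the authors pooled both before calling boundaries. Of 35 changes of setting 23 kept their result, as did 2 more chosen after seeing the data, and 12 moved it. In these counts, kept means within 1.5 times for a count, or inside the binomial interval of the median. These intervals were wide, 15.9 to 73.5 kb for distance and 175 to 365 kb for domain length. Counting each domain once changed nothing, since no domain was shared. Several other kept results also could not have failed. Bin centres and inner bin edges shifted every value of the 10 genes by a constant. With strong boundaries alone, their distances and their count at a boundary could not change, as each nearest boundary was strong. The receptor trafficking count of 0 could not rise in the bin or with strong boundaries alone. The count of 23 is therefore not a measure of robustness. The number of genes at a boundary depended on the window by construction. In the bin alone it was 0 of the 10 genes, 0 of 28 heterochromatin and 1 of 19 stress feedback genes, against 3.86% of all protein-coding TSSs. Within 25 kb it was 3 of the 10, 6 of 28 heterochromatin, 8 of 19 stress feedback and 0 of 10 receptor trafficking genes, against 26.5%. Within 50 kb it was 6 of the 10, 15 of 28 heterochromatin, 11 of 19 stress feedback and 2 of 10 receptor trafficking genes, against 45.3% of all TSSs. With strong boundaries alone it was 2 of 28 heterochromatin genes, against 9.3%. The CTCF consensus lay in the bin itself at 2 of 19 flanking boundaries, against 6.29% of the list. Counting genes of any biotype gave a median of 8 other genes per domain, against 10 over all protein-coding TSSs. At 25 kb the consensus count of 7 of 19 was unchanged, against 38.5% of the list, so the excess over the list at 10 kb did not hold there. With both flanks of each gene counted, the median strength of 0.723 stood against 0.640 over all protein-coding TSSs.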

Other observations

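Beyond the domains of the 10 genes, the neighbouring intervals ranged widely. The shortest was the 80 kb interval downstream of the Ehmt2 domain and the longest the 845 kb interval upstream of the Rtp2 domain. The boundaries one step farther out included strong ones beside Cbx5 (2.04, past the downstream flank) and Lbr (2.02, past the downstream flank, and 1.67, past the upstream one). Those past the upstream flank of Rtp2 (0.268) and the upstream flank of Eif2ak3 (0.281) were weak.

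Reep1, a receptor trafficking gene, and Kdm3a, a histone demethylase gene, had the same nearest boundary, a weak one on chromosome 6 (71825001 to 71830000; 0.292), at 117.4 and 192.0 kb, in a domain of 390 kb. Rtp4 was the only gene of the lists that shared a domain with one of the 10 genes.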
